A study of Mus musculus with 46 samples.

Results

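The matrix metalloproteinases (MMPs), the ADAMTS proteases and their tissue inhibitors, the TIMPs, were followed across mouse synovial sarcomas in which a subunit of a BAF-family chromatin remodelling complex had been disrupted. The members were all protein coding genes whose GENCODE M21 symbol is Mmp, Adamts or Timp followed by a number, with or without a letter a or b after an Mmp number. The rule used names and no measured value. It gave 45 of the 56854 genes present in both count tables, namely 22 Mmp, 19 Adamts and 4 Timp genes. Of 46 symbols of this form, 1 (Mmp1a) was left out because that annotation does not class it as protein coding.

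RNA was sequenced from 46 whole tumours, 1 per mouse. All mice, male and female and controls included, carried a human fusion gene at Rosa26 that Cre switches on, and tumours were started by injecting TATCre protein into the hindlimb at 8 days of age. The hSS2 background (SSM2 in the labels) expresses SS18::SSX2 and the hSS1 background expresses SS18::SSX1. Besides the fusion, floxed mice carried conditional alleles of Pbrm1, a subunit of PBAF, or of Arid1a or Arid1b, alternative subunits of canonical BAF, which the same injection recombines; per the study's methods these alleles were homozygous. The hSS2 tumours were 13 controls and 8 each with floxed Pbrm1 (Pbrm1-fl), Arid1a (Arid1a-fl) or Arid1b (Arid1b-fl), and the hSS1 tumours were 5 controls and 4 Pbrm1-fl. Mice were the replicates, and replicate numbers below follow the order of deposit within a group.

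MMPs and ADAMTS enzymes are zinc-dependent proteases that cut collagens, proteoglycans and other parts of the extracellular matrix, either secreted or, for the membrane-type MMPs, held at the cell surface. They are made as inactive zymogens, need removal of a propeptide to work, and are held in check by the TIMPs, which plug the active site. In connective tissue and in sarcomas they are made by tumour cells, fibroblasts, endothelium, osteoclasts and infiltrating leukocytes, and transcription of several of them responds to AP-1 and ETS factors.

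Of the 22 Mmp genes, 9 lay side by side on chromosome 9 within 427.1 kb (chr9:7272514-7699585 in GRCm38). Promoters from RefSeq on GRCm38.p6 were at hand for 31 of the 45 members, as 34 windows of the 250 bases before a transcription start. The AP-1 element TGANTCA, searched on both strands, was in 7 of these 34 windows, or 20.6%, against 6.75% of 32851 windows of all genes. These were 7 of the 9 genes of the cluster, whereas 0 of 10 Adamts and 0 of 4 Timp genes with a promoter held it. The PEA3 element of ETS factors, AGGAAG on either strand, was in 14 of 34 windows (41.2%) against 29.5% of all windows. It was found in 9 of 17 Mmp, 1 of 10 Adamts and 3 of 4 Timp genes. A match describes the letters only. The stretches below run from 110 to 25 bases before the start of those 7 cluster genes, with the AP-1 element in capitals, and are shown because genes with this shared element differed widely in level, as given below. All lay outside annotated exons.
Mmp13, chr9:7272404-7272489, plus strand: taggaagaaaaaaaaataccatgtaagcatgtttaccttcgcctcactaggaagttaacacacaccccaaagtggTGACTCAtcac
Mmp12, chr9:7347264-7347349, plus strand: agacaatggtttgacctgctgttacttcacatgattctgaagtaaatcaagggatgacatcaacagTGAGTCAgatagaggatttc
Mmp1b, chr9:7388051-7388136, minus strand: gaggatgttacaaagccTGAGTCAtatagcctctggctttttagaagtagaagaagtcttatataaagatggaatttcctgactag
Mmp3, chr9:7445712-7445797, plus strand: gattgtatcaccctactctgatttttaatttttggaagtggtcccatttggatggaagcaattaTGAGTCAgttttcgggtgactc
Mmp10, chr9:7502232-7502317, plus strand: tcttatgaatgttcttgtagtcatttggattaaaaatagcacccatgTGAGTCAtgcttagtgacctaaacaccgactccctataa
Mmp20, chr9:7628121-7628206, plus strand: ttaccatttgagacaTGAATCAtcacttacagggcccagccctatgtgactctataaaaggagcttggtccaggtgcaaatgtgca
Mmp7, chr9:7691980-7692065, plus strand: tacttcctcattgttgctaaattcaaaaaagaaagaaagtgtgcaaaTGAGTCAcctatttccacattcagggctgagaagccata

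The element sat closest to the start in Mmp13 (35 bases), Mmp12 (44) and Mmp3 (46), at 63 bases in Mmp10 and Mmp7, and at 93 and 95 bases in Mmp1b and Mmp20. Where a gene had more than 1 window, the one with the element was printed. Mmp12 and Mmp7 also had windows at chr9:7344147-7344396 and chr9:7692091-7692340 with 0 AP-1 elements. The annotated Mmp12 gene begins at chr9:7344381, so its printed stretch precedes an alternative start inside the gene. The 5 members below passed the test against control tumours in 1 hSS2 genotype. They are shown for contrast with those cluster genes. None held either element in its 250 bases, and their windows were richer in G and C. Neither trait was particular to these 5. Adamts2, Adamts14, Adamts20 and Timp2 did not pass against hSS2 controls and also held neither element. Their 250 bases had 78.0%, 76.4%, 76.4% and 68.0% G and C. Mmp27, which was not tested, held neither element at 38.8%. Each stretch printed below runs from 250 to 31 bases before the start, and lies outside annotated exons. The G and C content was 78.2% for Adamts3, 70.0% for Adamts9, 65.0% for Adamts18 and 63.2% for Mmp15, was lowest for Adamts17, and was 37.2% to 45.3% in the shorter stretches above.
Adamts9, chr6:92943565-92943784, minus strand: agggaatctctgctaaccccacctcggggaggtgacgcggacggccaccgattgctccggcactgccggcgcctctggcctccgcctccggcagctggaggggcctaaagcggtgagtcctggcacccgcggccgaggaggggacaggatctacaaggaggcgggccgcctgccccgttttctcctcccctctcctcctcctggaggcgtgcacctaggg
Adamts17, chr7:66839485-66839704, plus strand: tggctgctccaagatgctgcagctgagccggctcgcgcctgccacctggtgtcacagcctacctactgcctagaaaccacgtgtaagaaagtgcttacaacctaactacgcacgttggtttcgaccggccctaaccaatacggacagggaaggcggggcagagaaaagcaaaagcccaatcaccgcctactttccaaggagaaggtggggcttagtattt
Adamts18, chr8:113848870-113849089, minus strand: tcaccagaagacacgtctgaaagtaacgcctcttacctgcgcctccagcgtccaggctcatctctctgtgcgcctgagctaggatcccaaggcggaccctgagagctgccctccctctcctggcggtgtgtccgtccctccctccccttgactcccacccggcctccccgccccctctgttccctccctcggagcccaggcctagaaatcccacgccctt
Adamts3, chr5:89883365-89883584, minus strand: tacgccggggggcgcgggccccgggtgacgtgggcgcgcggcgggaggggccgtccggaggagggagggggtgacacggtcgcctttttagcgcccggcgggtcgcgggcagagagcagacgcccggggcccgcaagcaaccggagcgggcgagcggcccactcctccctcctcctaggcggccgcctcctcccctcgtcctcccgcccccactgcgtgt
Mmp15, chr8:95352046-95352265, plus strand: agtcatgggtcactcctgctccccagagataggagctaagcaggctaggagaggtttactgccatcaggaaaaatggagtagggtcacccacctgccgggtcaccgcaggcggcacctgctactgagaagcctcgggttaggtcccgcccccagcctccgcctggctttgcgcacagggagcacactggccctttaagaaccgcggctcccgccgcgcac

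Library totals ran from 10.138 to 21.295 Mreads (mega reads, counted on genes). In floxed tumours the RNA of the targeted gene was lower by log2 fold changes of -1.27 for Pbrm1 in hSS2 (no overlap with controls, adjusted p 4.20e-12), -0.75 for Pbrm1 in hSS1 (no overlap, adjusted p 0.193), -0.95 for Arid1a (adjusted p 7.02e-05) and -0.80 for Arid1b (adjusted p 0.145). Arid1b had 110.5 to 348.4 CPM (counts scaled to the library total) in Arid1b-fl tumours and 229.8 to 678.2 CPM in controls, with 7 of 8 below the control median and 5 below every control. The Arid1a level of 1 hSS2 control (replicate 9) lay inside the Arid1a-fl range. Summed levels of 8 skeletal muscle markers ran from 5.36 to 34660 CPM over the tumours. Mouse numbers ran with genotype: all hSS2 Pbrm1-fl mice were numbered 2000 or over, all hSS2 Arid1a-fl mice under 1000, and all hSS2 Arid1b-fl and hSS1 Pbrm1-fl mice from 1000 to under 2000. Controls spanned the ranges. The library numbers in the labels run in 3 blocks in hSS2, which are the same as the mouse number ranges, and the hSS1 libraries carry another series of numbers. The study bred each floxed line with controls from the same litters, but the labels do not tie tumours to litters. Each floxed genotype was therefore also set against the controls of its own range, which were numbered in the same block in hSS2, and the background and the library series cannot be told apart. Because these are bulk samples, fewer cells of a type and less RNA per cell cannot be told apart in any value below.

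To compare members with each other, levels were put on a scale per length, as RPKM, which is CPM (given below too) divided by the annotated exonic length in kilobases. Mmp2, the gelatinase A gene, was the most abundant member, with a mean of 115.1 RPKM over the 46 tumours and a range from 2.49 to 319.6. Mmp14, whose membrane-anchored product activates pro-MMP2 in a complex with TIMP2, came next at 67.8 RPKM (35.8 to 159.1). Timp2 followed at 39.4 RPKM (2.64 to 100.6). Thus the 3 partners of that activation complex led the list. Their per-length levels overlapped from tumour to tumour, so the order of neighbours holds for the means only.

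**Figure D1:**
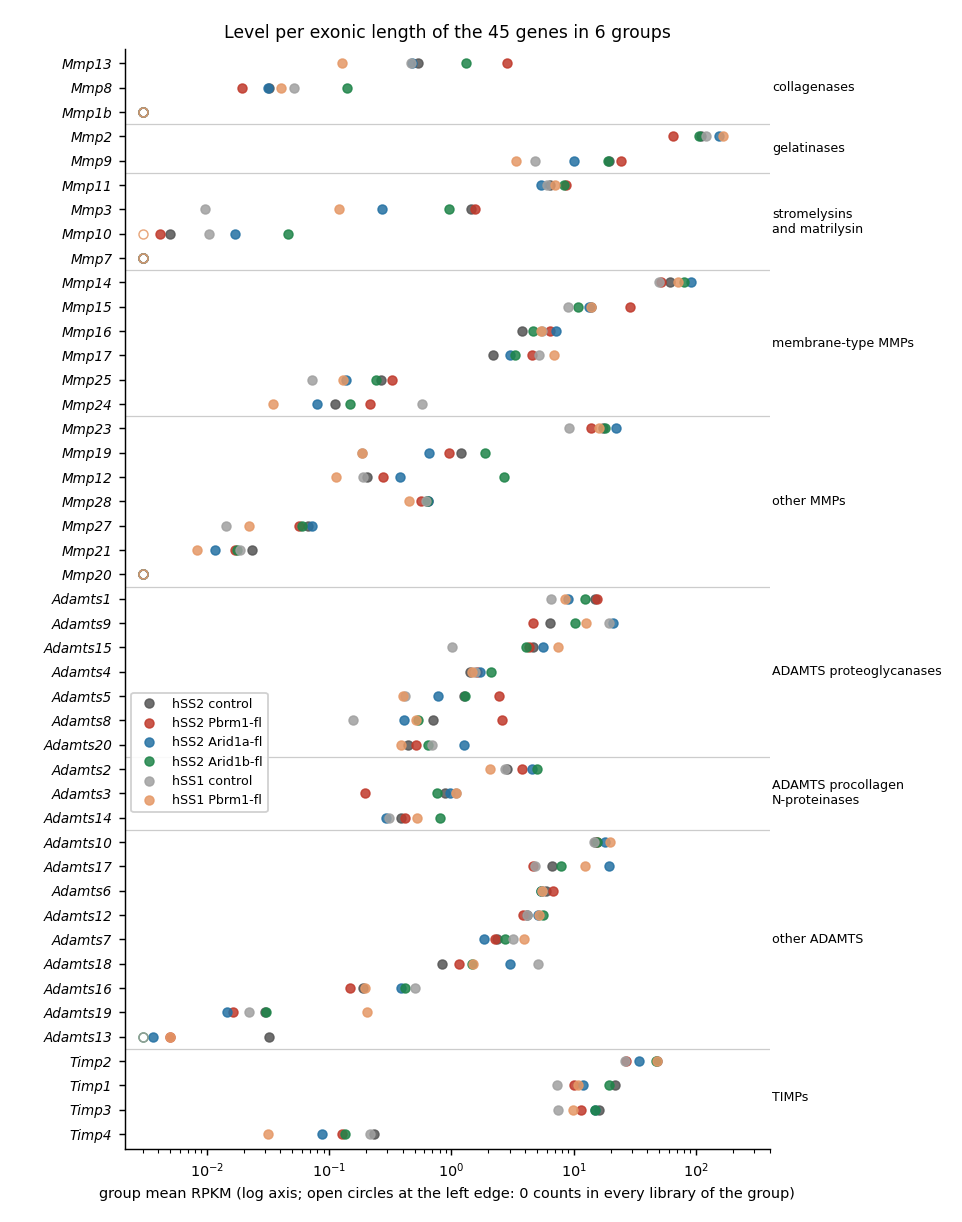
Mean RPKM (log axis) of each of the 45 genes in the 6 genotype groups, 1 point per group, ordered by role and coloured by group, with open circles at the left edge for genes at 0 counts in every library of a group. Mmp2, Mmp14 and Timp2 sit farthest right and Mmp1b, Mmp7 and Mmp20 at the left edge in all 6 groups.

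Mmp23, a type II membrane MMP released by cleavage, averaged 16.6 RPKM, and Adamts10, which acts on fibrillin microfibrils, averaged 16.1. The gelatinase B gene Mmp9 averaged 15.5 RPKM but ran from 0.513 to 81.0. Mmp15, a membrane-type MMP, averaged 15.3, Timp1 15.1 and Timp3, the matrix-bound inhibitor, 13.4 RPKM. Adamts1, an aggrecan- and versican-cutting enzyme, averaged 12.1 RPKM. Timp4 was the scarce inhibitor, at 0.152 RPKM. From Mmp23 to Timp3 the means differed by less than the SD of Mmp23 between tumours within any of the 6 groups, which was 6.52 RPKM or more. That SD is not the error of a mean, and the order of these means was not tested. The annotation has other genes overlapping all 4 TIMPs, Mmp11, Mmp12, Adamts4 and Adamts7, and also Adamts2, Adamts3, Adamts8, Adamts9, Adamts17, Mmp16 and Mmp24, several of which are called below, and the strand setting of the counting is not given in the sources used here, so part of their counts may belong to the neighbour.

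At the other end, the collagenase homologue Mmp1b, the enamelysin gene Mmp20 and the matrilysin gene Mmp7 had 0 counts in all 46 libraries, although all 3 promoters hold the AP-1 element printed above. A count of 0 allows a level of up to 3 counts per library, 0.141 to 0.296 CPM depending on the depth. Mmp10 (stromelysin 2) reached 9 counts at most, in hSS2 Arid1b-fl replicate 5, and was at 0 in all hSS1 Pbrm1-fl tumours. Mmp21 reached 4 counts at most. Adamts13, the von Willebrand factor protease of liver, reached 10 counts at most and was at 0 in all 8 hSS2 Arid1b-fl and all 5 hSS1 control tumours. Mmp8, the neutrophil collagenase, and Mmp27 had 10 or more counts in 1 library each. Of these, Adamts13 was at 0 in 1 of 13 hSS2 controls, against 7 of 8 Pbrm1-fl and 6 of 8 Arid1a-fl tumours in hSS2. It was under the count filter of the edgeR fit, and DESeq2 called it among the 4 hSS2 groups (adjusted p 0.0016). In contrast, 20 members had 10 or more counts in every library.

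Members also differed in how steady they were. Among the 13 hSS2 control tumours the SD of log2 CPM was 0.33 for Adamts6, a protease of microfibrils, and 0.40 for Mmp14. It was 2.13 for Mmp9 and 2.53 for Mmp3, the stromelysin 1 gene. Several tumours held the lowest or highest level of their group for many members. Of the 36 members detected in the hSS2 Pbrm1-fl group, replicate 8 had the lowest level for 17 and replicate 7 for 9, while replicate 1 had the highest for 14. Likewise hSS2 control replicate 13 had the highest level for 14 of 39 members, hSS2 Arid1a-fl replicate 1 the lowest for 14 of 36, hSS1 control replicate 4 the lowest for 15 of 35 and hSS1 Pbrm1-fl replicate 3 the lowest for 16 of 33.

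In hSS2 tumours with Pbrm1 disruption, 1 member rose and 1 fell of the 36 tested against hSS2 controls, a share of 5.56%, while 7.35% of all 20083 genes tested passed the same edgeR quasi-likelihood test at an adjusted p under 0.05 (3.4% higher and 3.95% lower). In both directions the share of members was thus close to that of all genes. The median log2 fold change was 0.05 over members and -0.0042 over all genes. Tests below are from this model, with Benjamini-Hochberg adjustment over all genes tested.

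Mmp15 (ENSMUSG00000031790, chr8:95352268-95375080 in GRCm38) encodes MT2-MMP, a membrane-type enzyme that cuts pericellular matrix. It was 29.1, 65.4 and 173.5 CPM (lowest, median and highest) in controls and 91.1, 138.1 and 239.6 CPM in Pbrm1-fl tumours. All 8 Pbrm1-fl tumours lay above the control median and 3 above every control, so the groups overlapped. On the log2 scale the difference was 1.04 (SE 0.277, edgeR adjusted p 0.0173). Against the 4 controls of the same mouse number range it was 0.66 with adjusted p 0.452. Among controls alone, those numbered 2000 and over exceeded those under 1000 by 0.99 on the log2 scale (unadjusted p 0.0162, edgeR adjusted p 0.174).

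Adamts3 (ENSMUSG00000043635, chr5:89677087-89883334 in GRCm38), a procollagen N-proteinase that also processes VEGF-C, fell. Its levels were 0.412, 3.40 and 12.1 CPM in controls and 0.0511, 1.04 and 3.11 CPM in Pbrm1-fl tumours, with all 8 below the control median and 2 below every control. In edgeR the difference was -2.21 on the log2 scale (SE 0.562, edgeR adjusted p 0.0130). Against controls of the same range it was -1.65 with adjusted p 0.199. Adamts3 and Mmp15 passed in all 21 fits with 1 tumour left out, and the number of members past the threshold rose to 4 without Pbrm1-fl replicate 7 or 8 and to 5 without control replicate 4. Of the other procollagen N-proteinases in the same contrast, Adamts2 was at 0.37 (adjusted p 0.532) and Adamts14 at 0.07 (adjusted p 0.952).

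Of the membrane-type MMPs, all 6 were tested and 5 had positive log2 fold changes, with a median of 0.84. Mmp15 was the 1 that passed. Mmp17, a GPI-anchored member of this class, had 12.5 CPM as control median and 22.7 CPM as Pbrm1-fl median, a log2 fold change of 1.04 with adjusted p 0.0574 (0.57 and 0.668 against controls of the same range). Mmp14 was an exception, at -0.26 (adjusted p 0.425).

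Adamts8 and Mmp13 missed the threshold in edgeR, whereas DESeq2 called them (adjusted p 0.0304 and 0.0266) and also Mmp17 (0.0370). Against controls of the same range they were at 1.79 (edgeR adjusted p 0.378) and 1.87 (0.585). Adamts8, an anti-angiogenic member of the proteoglycanase group, ran from 0.203 to 9.89 CPM (median 2.42) in controls and from 0.875 to 31.04 CPM (median 11.2) in Pbrm1-fl tumours. The Pbrm1-fl tumours split, with 5 above every control and the remaining 3 below the control median. In the model it was 1.84 on the log2 scale (SE 0.605, edgeR adjusted p 0.0555), and with 1 tumour left out it ran from 1.46 to 2.12, with adjusted p from 0.0297 to 0.155. Mmp13, collagenase 3 of cartilage and bone, had a log2 fold change of 2.37 (adjusted p 0.0576), with 42.7 CPM in Pbrm1-fl replicate 2 against a group median of 2.33. Osteoblast and hypertrophic cartilage marker sums had a median of 52.3 CPM (11.7 to 125.3) in Pbrm1-fl and 15.4 CPM (3.59 to 95.1) in control tumours, with overlap. Of the 6 markers listed, 3 were tested, all with positive log2 fold changes, and Alpl passed. Whether these markers account for Mmp13 was not tested.

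All 4 TIMPs had negative log2 fold changes in Pbrm1-fl tumours, with a median of -0.87, and none passed. Timp2 had 107.1, 170.7 and 337.9 CPM in controls and 10.3, 90.1 and 248.0 CPM in Pbrm1-fl tumours, and 5 of the 8 lay below every control. The log2 fold change came to -0.85 (SE 0.387, adjusted p 0.183). Timp1, an inhibitor induced by many growth signals, was at -1.16 (adjusted p 0.265), Timp3 at -0.53 (adjusted p 0.356) and Timp4 at -0.89 (adjusted p 0.558). Against controls of the same range Timp4 turned to 1.00 (adjusted p 0.808), while Timp1, Timp2 and Timp3 were at -1.44, -0.78 and -0.44 (adjusted p 0.475, 0.589 and 0.786). The lowest Pbrm1-fl value was that of replicate 8 for Timp1, Timp2 and Timp3. Synovial sarcoma marker sums in this group had a median of 495.9 CPM against 708.6 CPM in controls (0 of 8 markers passed, 4 had an unadjusted p under 0.05). Osteoclast marker sums had a median of 19.7 CPM (4.09 to 137.4) against 147.1 CPM (9.61 to 297.4). Of 6 osteoclast markers listed, 3 were tested. Acp5 and Ctsk fell, and the third had a positive log2 fold change and did not pass. Cnn1 and Cspg4, 2 of 8 pericyte and smooth muscle markers, also fell, and Matn1, 1 of 5 cartilage markers tested, rose. The part of these cell types in the TIMP levels was not tested.

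Among other genes of the system, 3 of those listed passed in this contrast. For listed genes, here and below, no values against controls of the same mouse number range are given. Serpine2 (protease nexin 1, an inhibitor of plasminogen activators) fell by 1.86 on the log2 scale (adjusted p 0.00156), the 1 called of 14 tested activators, inhibitors and clearance factors. Eln (elastin, a substrate of MMP9 and MMP12) rose by 2.68 (adjusted p 0.00908), the 1 called of 13 tested matrix substrates. Jun (an AP-1 subunit) fell by 1.87 (adjusted p 0.0113), the 1 called of 11 AP-1 and ETS factors, from a median of 94.5 CPM in controls to 22.2 CPM. Of 7 ADAMTS-like genes tested, 0 passed (3 had an unadjusted p under 0.05), and of 8 ADAM genes likewise 0 (0 at that p).

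**Figure D2:**
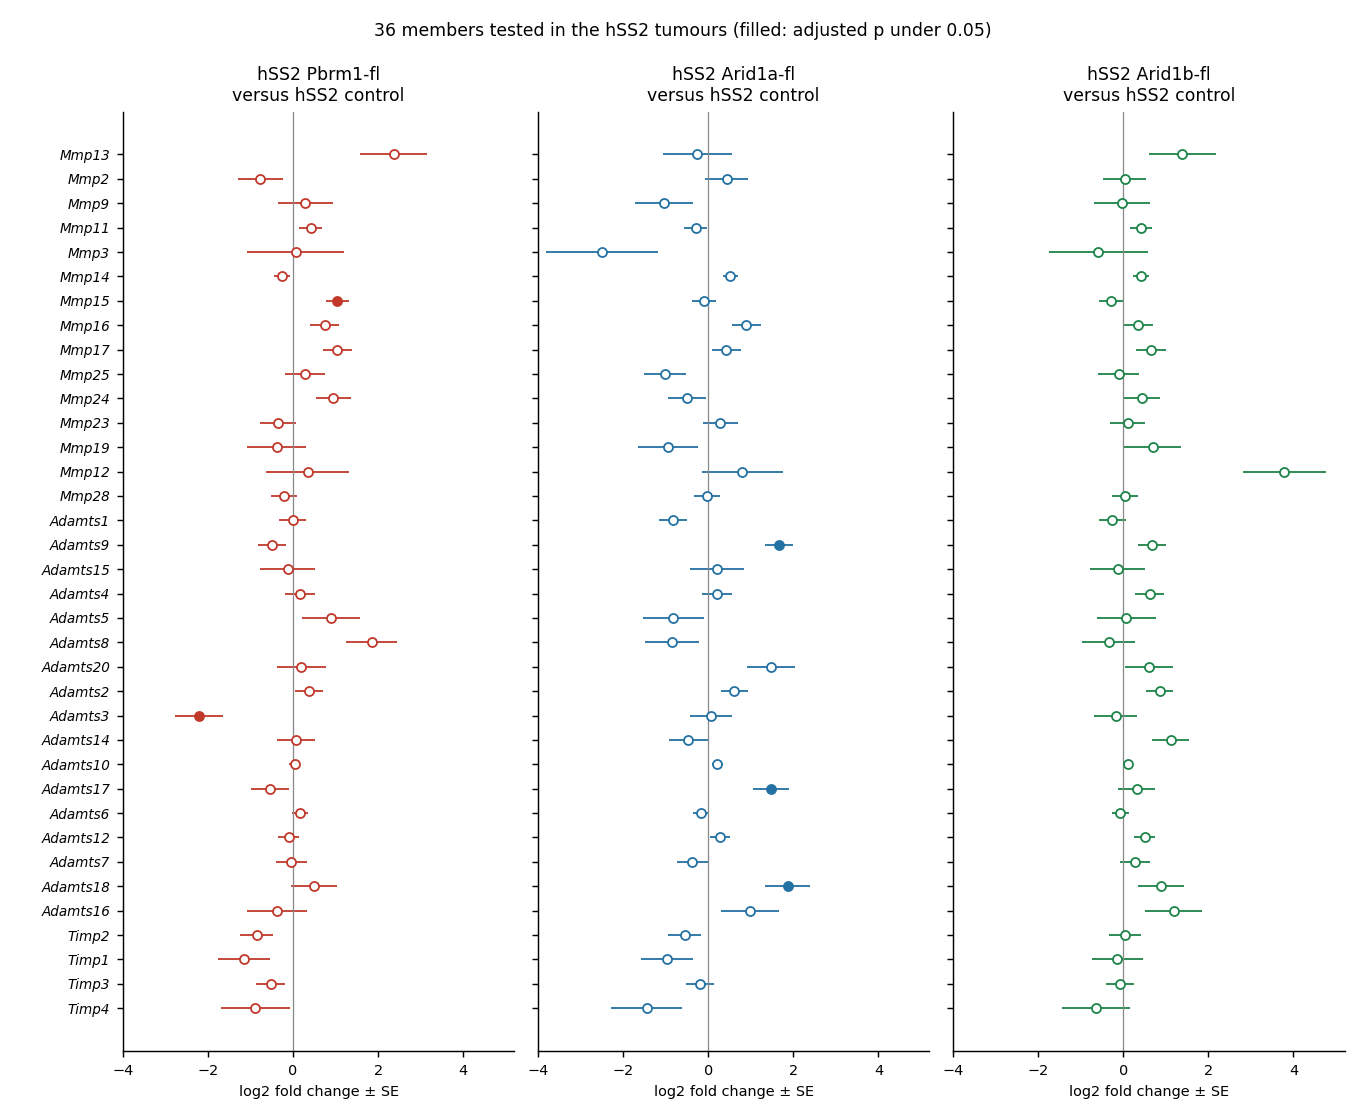
Log2 fold change against hSS2 control with its SE (x axis) for the 36 members tested, in 3 panels, 1 per floxed gene, filled where the adjusted p was under 0.05. Filled points are Mmp15 and Adamts3 for Pbrm1-fl and Adamts9, Adamts17 and Adamts18 for Arid1a-fl, and there is none for Arid1b-fl; the wide shift of Mmp12 for Arid1b-fl rests on 1 tumour.

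Disruption of Arid1a was accompanied by higher levels of 3 ADAMTS genes and by no MMP or TIMP change that passed. The 3 were 8.33% of the 36 members tested, against 3.17% of all genes called (1.41% higher and 1.76% lower). All 3 were among 17 tested Adamts genes. DESeq2 called 4 members, adding Mmp12 at 1.85 (adjusted p 0.0251), which edgeR put at 0.80 (adjusted p 0.627). The same controls served here as for Pbrm1-fl, so the comparisons are not independent.

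Adamts9 (ENSMUSG00000030022, chr6:92772699-92943492 in GRCm38), which cuts versican and aggrecan and is also needed for ciliogenesis, was 54.6, 85.5 and 306.5 CPM in controls and 125.3, 287.0 and 727.2 CPM in Arid1a-fl tumours. All 8 Arid1a-fl tumours exceeded the control median and 4 exceeded every control. A single control, replicate 10, gave the upper limit of that group. On the log2 scale the difference was 1.67 (SE 0.324, edgeR adjusted p 0.00813), and with any 1 tumour left out it stayed between 1.37 and 1.95 with adjusted p from 0.000559 to 0.0466. Against the 5 controls of the same range it was 1.38 (adjusted p 0.0792).

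Adamts18 (ENSMUSG00000053399, chr8:113697126-113848738 in GRCm38), an orphan ADAMTS with a role in the basement membrane of developing epithelia, was 0.6247, 4.868 and 21.72 CPM in controls and 10.91 CPM at the lowest and 32.7 CPM at the median in Arid1a-fl tumours. All 8 were above the control median and 5 above every control. In edgeR the difference was 1.87 on the log2 scale (SE 0.532, adjusted p 0.0477). Adamts17 (ENSMUSG00000058145, chr7:66839735-67153171 in GRCm38), which acts on fibrillin fibrils as Adamts10 does, was 17.9, 42.1 and 94.8 CPM in controls and 40.3, 137.3 and 300.3 CPM in Arid1a-fl tumours. Of the 8, 6 were above the control median and 5 above every control. In the model it was 1.48 on the log2 scale (SE 0.426, adjusted p 0.0486). Both lay close to the threshold: with 1 tumour left out, Adamts18 passed in 8 of 21 fits and Adamts17 in 5 of 21. Adamts9 alone was left without Arid1a-fl replicate 1, 2, 5, 7 or 8, or without control replicate 4, 5, 6, 7, 12 or 13. Against controls of the same range, Adamts18 was at 1.76 (adjusted p 0.121) and Adamts17 at 1.21 (adjusted p 0.188). In that fit 1 other member passed, Mmp16, which encodes a membrane-type MMP, at 1.54 (adjusted p 0.0226); with all controls it was at 0.90 (adjusted p 0.120). Mmp16 was chosen after its value was seen.

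Mmp14 was next, with 213.2, 398.8 and 486.0 CPM in controls and 304.3, 559.0 and 744.4 CPM in Arid1a-fl tumours, 5 of which lay above every control. The log2 fold change came to 0.52 (SE 0.180, edgeR adjusted p 0.0852). Mmp2 was at 0.44 (adjusted p 0.615) and Mmp9 at -1.05 (adjusted p 0.353), with overlapping groups for both. The 4 TIMPs had negative log2 fold changes from -1.44 (Timp4) to -0.18 (Timp3), none past the threshold. Of the fixed lists, Adam12, a protease of mesenchymal cells, rose by 1.45 (adjusted p 0.0232), Adam10, a sheddase, rose by 0.28 (adjusted p 0.0484), and Spock2, a testican known to interfere with MT-MMP inhibition, fell by 1.27 (adjusted p 0.0361). These were 2 of 8 ADAM genes and 1 of 14 activators, inhibitors and clearance factors tested. Adipocyte marker sums had a median of 4.46 CPM in Arid1a-fl and 24.0 CPM in control tumours (0 of 6 markers passed, 4 had an unadjusted p under 0.05). Fibroblast sums had medians of 662.4 and 574.7 CPM, with 7 of 8 markers negative and 0 passing. Of the T cell markers, 5 of 5 tested were negative, with a median of -2.52 (0 passed, 4 had an unadjusted p under 0.05). Of the proliferation markers, 8 of 8 were positive, with a median of 0.82 (0 passed, 4 at that p), and their sums had medians of 719.2 CPM in Arid1a-fl and 292.5 CPM in control tumours. The part of these markers in the ADAMTS levels was not tested.

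**Figure D3:**
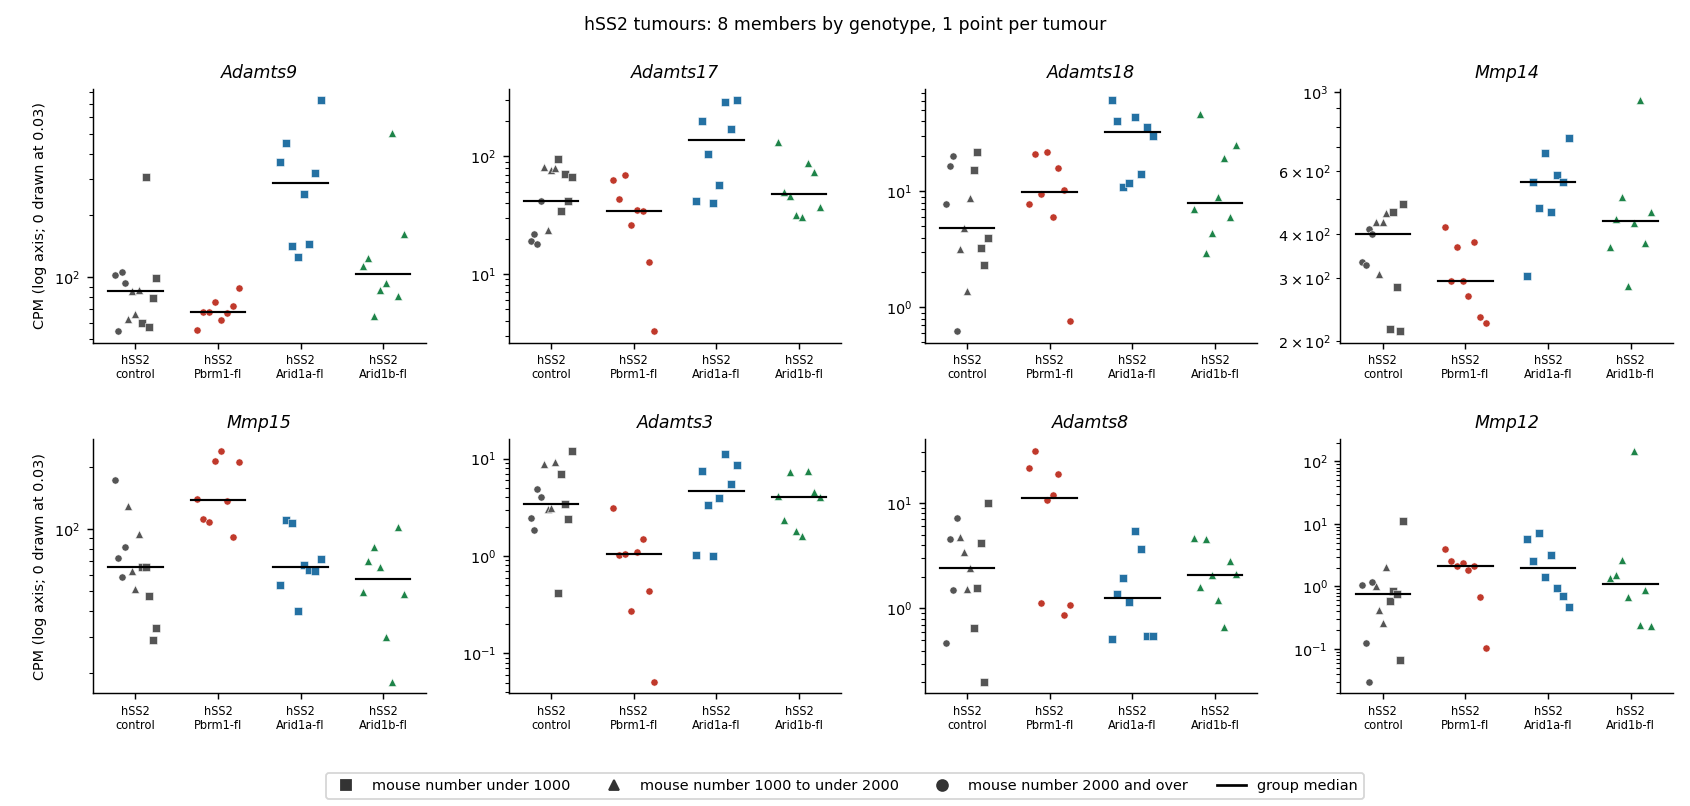
CPM (log axis, 0 drawn at 0.03) of 8 members in each hSS2 tumour by genotype, with the marker shape giving the mouse number range and the line the group median. Adamts9, Adamts17 and Adamts18 are higher in Arid1a-fl, Mmp15 higher and Adamts3 lower in Pbrm1-fl tumours, Adamts8 splits into 5 high and 3 low Pbrm1-fl tumours, and 1 Arid1b-fl tumour stands far above all others for Mmp12.

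The 2 genotypes were also set against each other directly, without controls. Of the 36 members, 3 were higher and 4 lower in hSS2 Pbrm1-fl than in hSS2 Arid1a-fl tumours, 19.4% against 12.3% of all genes (6.79% higher and 5.5% lower). Adamts9 differed most clearly, with no overlap between 55.2 to 88.8 CPM in Pbrm1-fl and 125.3 to 727.2 CPM in Arid1a-fl tumours (log2 difference -2.16, SE 0.384, edgeR adjusted p 0.000339). Adamts17 was lower by a log2 difference of -2.03 (adjusted p 0.00679) and Adamts3 by -2.27 (adjusted p 0.0102). Mmp14 was lower by -0.78 (adjusted p 0.00975), with all 8 Pbrm1-fl tumours below the Arid1a-fl median. On the higher side were Adamts8 at 2.69 (adjusted p 0.0131), Mmp15 at 1.14 (adjusted p 0.0153) and Mmp24 at 1.44 (adjusted p 0.0444), a membrane-type MMP of the nervous system.

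Mmp24 levels were low, 0.307 to 1.595 CPM in Pbrm1-fl and 0.0571 to 0.653 CPM in Arid1a-fl tumours, and its call held in 7 of 16 fits with 1 tumour left out. The other 6 members passed in all 16. The groups have no mouse number range in common. With each group set against the controls of its own range, 0 of 37 members passed in edgeR (7 had an unadjusted p under 0.05), and the differences were -1.73 for Adamts9 (adjusted p 0.144), -0.89 for Mmp14 (adjusted p 0.165) and 0.14 for Mmp15 (adjusted p 0.902). Among the listed genes, 8 passed in the direct contrast: Adamtsl4 (1.03) and Eln (3.33) were higher, and Ets2 (-1.40), Serpine2 (-1.56), Thsd4 (-1.69), Spock3 (-3.65), Adam12 (-1.51) and Adam10 (-0.39) were lower in Pbrm1-fl tumours. They were 2 of 14 activators, inhibitors and clearance factors, 2 of 7 ADAMTS-like genes and 2 of 8 ADAM genes tested. The rest were 1 of 13 matrix substrates and 1 of 11 AP-1 and ETS factors. Of all genes, 12.3% passed in this contrast. Spock3 stood at a median of 0.0621 CPM in Pbrm1-fl and 0.959 CPM in Arid1a-fl tumours, where its fold depends on few counts. Of the T cell markers, 5 of 5 tested were higher in Pbrm1-fl tumours, with a median of 2.90, and Cd3e passed. Osteoclast markers were lower in 3 of 3 tested, with a median of -2.35, and Acp5 and Ctsk passed. Adipocyte markers were higher in 6 of 6 (median 2.77, 0 passed). Osteoblast and hypertrophic cartilage markers were higher in 3 of 3 tested (median 1.64, 0 passed). The pericyte marker Cspg4 passed as lower and the cartilage marker Matn1 as higher. The part of these markers in the differences was not tested.

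With Arid1b disrupted, 0 of 36 members passed in edgeR, 6 had an unadjusted p under 0.05, and DESeq2 called 0 as well. The background was low too, at 0.0548% of all genes (0.0249% higher and 0.0299% lower). The median log2 fold change of members was 0.20, with 24 of 36 above 0, against 0.0045 for all genes. Mmp12, macrophage elastase, had the smallest p. Its levels were 0 and 0.770 CPM (lowest and median) in controls, with at most 208 counts, in replicate 13, and 0.235, 1.11 and 148.8 CPM in Arid1b-fl tumours. Replicate 5 alone was at 148.8 CPM (2331 counts), while the other 7 lay between 0.235 and 2.64 CPM, within the control range. On the log2 scale the difference was 3.79 (SE 0.973, adjusted p 0.284); without replicate 5 it was -0.45 (adjusted p 0.999), and without control replicate 13, the highest control, 4.90 (adjusted p 0.0320). In replicate 5 the marker sums were also the highest of its group for macrophages (413.4 CPM), neutrophils (25.9 CPM) and endothelium (977.0 CPM). So were those for pericytes and smooth muscle (655.6 CPM) and for proliferation (956.7 CPM). Sums for fibroblast (294.9 CPM), osteoclast (128.3 CPM) and synovial sarcoma markers (524.1 CPM) were the lowest of its group. Macrophage sums reached 447.3 CPM in hSS2 controls, 704.4 CPM in Pbrm1-fl and 440.1 CPM in Arid1a-fl tumours. Replicate 5 held 39 of the counts of Mmp8, which had 4 or fewer in every other library. The part of these cell types in the Mmp12 level was not tested.

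Adamts2, the main procollagen I N-proteinase, had 5.28, 23.0 and 52.5 CPM in controls and 27.5, 45.6 and 67.7 CPM in Arid1b-fl tumours, with all 8 above the control median (log2 fold change 0.86, adjusted p 0.697). Adamts14, another procollagen N-proteinase, was at 1.11 (adjusted p 0.729), with its highest value, 14.7 CPM, again in replicate 5, and at 0.42 (adjusted p 0.982) without that tumour. Against controls of the same mouse number range 0 of 37 members passed in edgeR (4 had an unadjusted p under 0.05), with Mmp12 at 4.52, Adamts2 at 0.75 and Adamts14 at 1.33. Arid1b itself did not pass the test, as given above. A test over all 4 hSS2 genotypes at once called 7 of 36 members (19.4%) against 11.8% of all genes: Adamts9 (adjusted p 0.000408), Mmp15 (0.00791), Mmp12 (0.0127), Adamts17 (0.0152), Adamts8 (0.0174), Mmp14 (0.0186) and Adamts3 (0.0315). It takes in the same tumours as the pairwise comparisons.

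In the hSS1 background, Pbrm1 disruption changed 0 of 29 members past the threshold in edgeR; 1 had an unadjusted p under 0.05, and 0.00562% of all genes passed. DESeq2 called 4 members, of which Adamts8, Adamts19 and Mmp24 were under the count filter of the edgeR fit. The smallest p was that of Adamts15 (ENSMUSG00000033453, chr9:30899155-30922452 in GRCm38), a versican- and aggrecan-cutting enzyme. Controls had 14.6, 14.7, 7.13, 11.8 and 4.68 CPM and Pbrm1-fl tumours 16.9, 27.1, 159.1 and 106.9 CPM. The groups did not overlap, but replicate 1 at 16.9 CPM stood little above the controls. In edgeR the difference was 2.90 on the log2 scale (SE 0.677, edgeR adjusted p 0.122; DESeq2 adjusted p 0.00105). Without Pbrm1-fl replicate 3, the highest tumour, it was 2.27 (adjusted p 0.177). Against the 3 controls of the same mouse number range it was 3.31 (adjusted p 0.341), and 0 of 31 members passed in that fit (3 had an unadjusted p under 0.05).

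Adamts18 went the other way, with 44.8, 34.6, 100.8, 26.4 and 50.99 CPM in hSS1 controls and 32.6, 12.3, 0.197 and 15.96 CPM in Pbrm1-fl tumours. Replicate 1 of the latter lay inside the control range, the other 3 below it (log2 fold change -1.77, SE 0.894, adjusted p 0.342). The value was -2.43 (adjusted p 0.367) without replicate 1, -1.35 (adjusted p 0.246) without replicate 3 and -1.99 (adjusted p 0.557) against controls of the same range. Mmp14 had 227.5, 283.6, 283.0, 323.8 and 358.9 CPM in hSS1 controls. In hSS1 Pbrm1-fl tumours Mmp14 had 256.4, 331.0, 597.6 and 508.8 CPM, 2 of them above every control (log2 fold change 0.52, SE 0.268, adjusted p 0.350; 0.38 and 0.698 against controls of the same range). The 3 TIMPs tested, Timp1, Timp2 and Timp3, had positive fold changes from 0.39 to 0.83, and none passed. Within the 4 Pbrm1-fl tumours Timp2 had 25.7 CPM at its lowest and 216.3, 109.6 and a still higher level in the others. Proliferation markers were negative in 8 of 8 in this contrast, with a median of -0.91 (0 passed, 7 had an unadjusted p under 0.05) and sums with medians of 801.4 CPM in Pbrm1-fl and 1474 CPM in control tumours. Fibroblast markers were positive in 4 of 5 tested, with a median of 1.05 (0 passed, 2 at that p) and sums of 684.7 and 377.4 CPM. Their part in the hSS1 levels was not tested.

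Whether Pbrm1-fl tumours differed from controls alike in both backgrounds was tested as an interaction over all 46 tumours. Pbrm1 itself was at 98.25 to 252.9 CPM in hSS1 Pbrm1-fl and 94.1 to 134.1 CPM in hSS2 Pbrm1-fl tumours. The study also reports weaker Pbrm1 depletion in hSS1. It proposes that cells that recombined a single floxed allele were favoured there. An effect of background and unequal disruption cannot be told apart here. Of 37 members, 2 (5.41%) had a Pbrm1-fl effect that differed, against 2.86% of all genes (1.7% more positive and 1.16% more negative in hSS1). Mmp24 (ENSMUSG00000027612, chr2:155775342-155818366 in GRCm38) had an effect lower by -4.90 in hSS1 than in hSS2 (SE 1.04, edgeR adjusted p 0.00977). In hSS1 controls it was at 4.90, 5.30, 3.22, 0.142 and 0 CPM and in hSS1 Pbrm1-fl tumours at 0.195, 0.182, 0.0986 and 0.178 CPM, that is 1 or 2 counts each. Replicates 4 and 5 of the controls were thus as low as the Pbrm1-fl tumours. Control replicates 1 and 2, the highest, came from mice numbered 2000 and over, and the other 3 from the range of the hSS1 Pbrm1-fl mice. Pooled over tumours, the level in hSS1 Pbrm1-fl was 0.0620 of that in hSS1 controls (7 against 159 counts, exact 95% interval 0.0245 to 0.131, which covers counting error only). In hSS2 the Mmp24 medians were 0.408 CPM in control and 1.01 CPM in Pbrm1-fl tumours.

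Adamts19, an orphan ADAMTS known from heart valve disease, had an effect higher by 4.09 in hSS1 (SE 1.08, edgeR adjusted p 0.0290). In hSS1 it was at 0.0891, 0.571, 0.609, 0.283 and 0 CPM in controls and 1.95, 2.36, 0.296 and 6.86 CPM in Pbrm1-fl tumours, with replicate 3 of the latter inside the control range. In hSS2 both groups stayed low, with medians of 0.292 and 0.251 CPM. Without hSS1 Pbrm1-fl replicate 4 or hSS1 control replicate 1 the call was lost, with an adjusted p of up to 0.0929. Adamts15 followed at 3.03 (SE 1.15, adjusted p 0.136), and at 2.39 (adjusted p 0.256) without hSS1 Pbrm1-fl replicate 3. With hSS2 tumours limited to those numbered 2000 and over, 0 of 36 members passed (5 had an unadjusted p under 0.05), and the values were -4.79 for Mmp24 (adjusted p 0.155) and 3.60 for Adamts19 (adjusted p 0.265). With hSS1 tumours also limited to the range of the Pbrm1-fl mice, a fit chosen after seeing the data, 0 of 37 passed (3 had an unadjusted p under 0.05), and the values were -3.52 for Mmp24 (adjusted p 0.388) and 3.66 for Adamts19 (adjusted p 0.462).

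**Figure D4:**
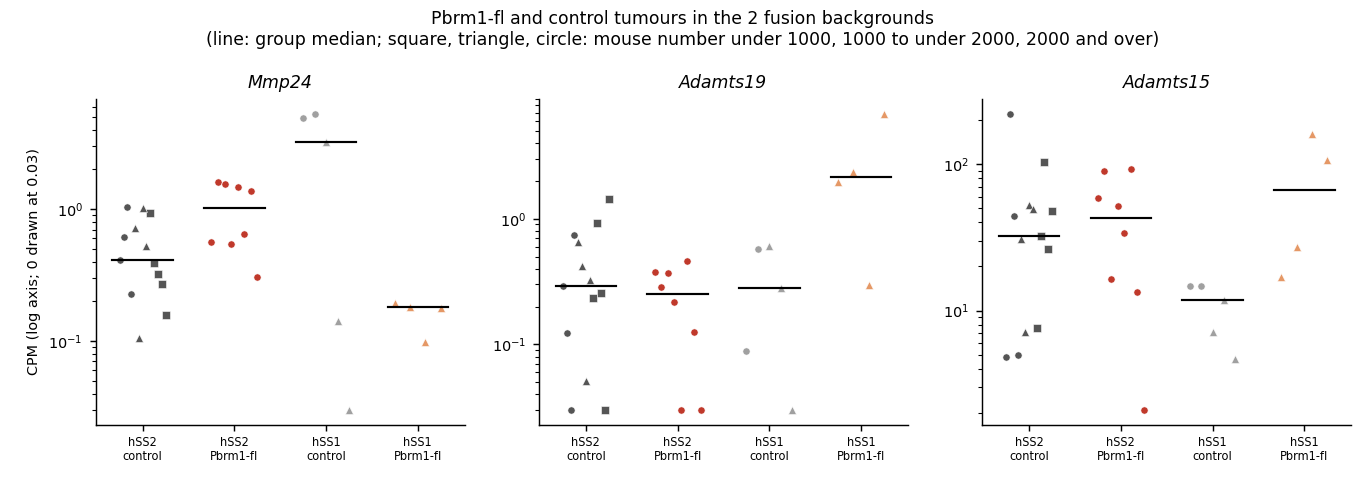
CPM (log axis, 0 drawn at 0.03) of Mmp24, Adamts19 and Adamts15 in each control and Pbrm1-fl tumour of the hSS2 and hSS1 backgrounds, with the marker shape giving the mouse number range and the line the group median. Mmp24 is at 3.22 to 5.30 CPM in 3 of 5 hSS1 controls and near 1 count in every hSS1 Pbrm1-fl tumour, Adamts19 is highest in 3 of 4 hSS1 Pbrm1-fl tumours, and hSS1 Adamts15 values do not overlap.

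Several members are known products of cells other than tumour cells, so each was set against markers of that cell type over the 37 hSS2 tumours, after removing the genotype mean. A marker score was the average of log2 CPM over the markers of a cell type. In all, 7 relations were computed, each with two-sided permutation tests and Benjamini-Hochberg adjustment over the 7. Tumours, not cells, are the points, and gene and markers share a library.

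Mmp12 varied with macrophage markers (r = 0.61, adjusted permutation p 8.75e-05; rho = 0.69, adjusted permutation p 7.00e-05). Without the 2 tumours farthest from the median score r was 0.59, and within the 3 mouse number ranges it was 0.84, 0.63 and 0.67. Mmp13 went with markers of osteoblasts and hypertrophic cartilage (r = 0.67, adjusted permutation p 3.50e-05; rho = 0.53, adjusted permutation p 0.0014), with r = 0.55 without 2 tumours and 0.79, 0.33 and 0.86 within ranges. Mmp9 went with osteoclast markers (r = 0.61, adjusted permutation p 8.75e-05; rho = 0.55, adjusted permutation p 0.00138). For Mmp9 r was 0.61 without 2 tumours, but 0.28, 0.36 and 0.87 within ranges, highest among tumours numbered 2000 and over; the difference between ranges was not tested. With neutrophil markers Mmp9 gave r = 0.38 (adjusted permutation p 0.0191) and rho = 0.30 (adjusted permutation p 0.0688), r = 0.48 without 2 tumours, and 0.39, 0.45 and 0.40 within ranges. The neutrophil score rests on few counts. In hSS2, 0 of its 8 markers passed the edgeR count filter, and their sums had group medians from 0.452 to 0.698 CPM. Of the osteoclast markers 3 of 6 passed that filter, as did 3 of 6 osteoblast and hypertrophic cartilage markers.

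Mmp8 and neutrophil markers gave r = 0.78 (adjusted permutation p 3.50e-05) and rho = 0.65 (adjusted permutation p 7.00e-05), with 0.66 left without 2 tumours and 0.61, 0.91 and 0.68 within ranges. Both rest on few counts: Mmp8 was at 0 in 21 libraries, and the defining neutrophil marker Ly6g was at 0 in all hSS2 control, Pbrm1-fl and Arid1b-fl tumours. Mmp2 and fibroblast markers gave r = 0.41 (adjusted permutation p 0.0121) and rho = 0.34 (adjusted permutation p 0.0427). Without 2 tumours r was 0.29 (adjusted permutation p 0.0868), no longer past the threshold. Within ranges r was 0.31, 0.39 and 0.60, and rho -0.02, 0.23 and 0.62. Muscle marker scores, as deviations from the genotype mean, were split into clusters at their widest gap away from the ends, which was 2.01. Timp4, an inhibitor of heart and muscle, was related to them within each cluster, a split chosen after seeing the data. No pooled value is given for this relation, and low and high scores below are relative to a tumour's own genotype. In the 17 tumours with low scores r was -0.40 (permutation p 0.111) and rho -0.31 (permutation p 0.230). In the 20 with high scores r was 0.45 (permutation p 0.0469) and rho 0.48 (permutation p 0.0311), both unadjusted.

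**Figure D5:**
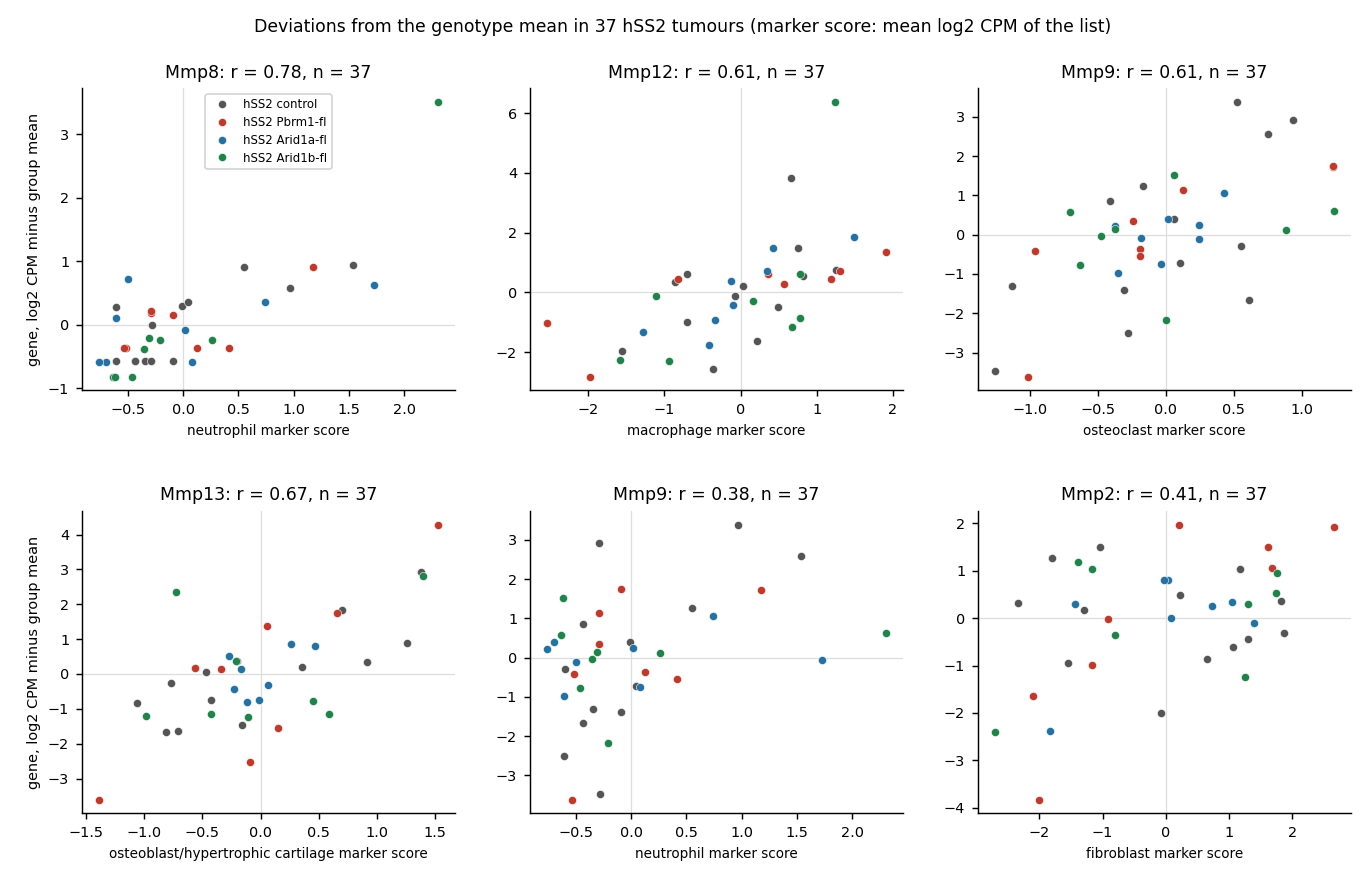
Deviation of a member from its genotype mean (y axis, log2 CPM) against the deviation of a marker score (x axis, mean log2 CPM of the list) in 37 hSS2 tumours, coloured by genotype, for 6 relations. Mmp8 with neutrophil (r = 0.78), Mmp13 with osteoblast and hypertrophic cartilage (r = 0.67), Mmp12 with macrophage and Mmp9 with osteoclast markers (both r = 0.61) show the closest relations, and hSS2 Arid1b-fl replicate 5 is the top right point for Mmp8.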

How the data were processed

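Whole tumours from 46 mice were profiled by RNA-seq from rRNA-depleted, stranded, paired-end libraries. The authors aligned reads to mm10 and deposited raw read counts per Ensembl gene, in 1 table for hSS2 and 1 for hSS1; the submitters' processing notes name STAR 2.7.11 and featureCounts 1.6.3, and the strand and multi-mapping settings are not given in the sources used here. Library totals ran from 10.138 to 21.295 Mreads (mega reads, counted on genes). Symbols, biotypes and exonic lengths came from GENCODE M21, which matched 91.5% (hSS2) and 91.3% (hSS1) of gene IDs. From the counts, CPM used library totals and RPKM the union exonic length.

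Differences were tested with edgeR 4.0.16 (R 4.3.3; TMM, filterByExpr, robust quasi-likelihood F-test, Benjamini-Hochberg over all genes tested, threshold 0.05), over the 37 hSS2 libraries in 1 fit, the 9 hSS1 libraries in another and all 46 for the interaction. DESeq2 1.42.0 was an alternative. The scripts were tested on simulated counts. Relations used log2 CPM (prior count 2) centred within genotype, with 100000 permutations. Groups came from the labels, which give no replicate numbers; no pair of libraries agreed within sampling noise. Intervals and floors (3 counts) cover counting error only.

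Named with values were members past the threshold in a comparison (where fewer than 3 passed, the 3 with the smallest p), the 10 most abundant by RPKM, the TIMPs, Mmp2, Mmp9, Mmp14, and members at 0 in all libraries of a group. Mmp3, Mmp13, Mmp16, Mmp17, Mmp21, Mmp27 and Adamts6 fell outside this rule and were chosen after their values were seen; Mmp8 and Mmp13 also belong to the planned relations. The members and lists were chosen with earlier results of these data known. Relations within mouse number ranges and within Timp4 clusters, and the interaction fit with both backgrounds limited to the Pbrm1-fl ranges, were chosen after seeing the data. Protein sequences were not used here.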

Additional observations from a re-analysis of the deposited data

Results flagged for a closer look

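In 105 sets of 4 to 10 tumours, each a named member in 1 group, the highest or lowest tumour was compared with the rest, and 8 stood far apart; chance alone flags about 1 in 20. Mmp12 in hSS2 Arid1b-fl replicate 5 was 148.8 CPM, against 0.235 to 2.64 CPM in the other 7. Adamts9 in hSS2 Arid1b-fl replicate 6 was 505.8 CPM, against 65.0 to 163.1 CPM. Mmp9 in hSS2 Pbrm1-fl replicate 8 was 4.39 CPM, against 38.01 to 185.1 CPM, and Adamts18 in the same tumour was 0.766 CPM, against 6.07 to 21.9 CPM. Mmp2 in hSS2 Arid1a-fl replicate 1 was 84.6 CPM, against 413.6 to 781.1 CPM. Adamts17 in hSS1 control replicate 4 was 4.32 CPM, against 36.3 to 51.2 CPM. Timp4 in hSS1 control replicate 1 was 6.06 CPM, against 0 to 0.245 CPM. Timp1 in hSS1 Pbrm1-fl replicate 3 was 1.48 CPM, against 10.6 to 15.1 CPM.

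The difference between Pbrm1-fl and control tumours was unlike in the backgrounds, by the interaction test in edgeR, for Mmp24 (log2 difference -4.90, adjusted p 0.00977) and Adamts19 (4.09, adjusted p 0.0290). Pbrm1 itself was at -1.27 in hSS2 and -0.75 in hSS1, so background and unequal disruption cannot be told apart.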

How the results depend on the processing

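Of 761 values recomputed under alternatives, 663 kept their direction and side of the threshold (or stayed within 1.5 times for a count). With DESeq2, the members called were 5 for hSS2 Pbrm1-fl, 4 for hSS2 Arid1a-fl (adding Mmp12), 11 among the 4 hSS2 groups and 4 for hSS1 Pbrm1-fl. Against controls of the same mouse number range they were 0 for hSS2 Pbrm1-fl and 1 for hSS2 Arid1a-fl. The 1 was Mmp16, which did not pass with all controls, so Adamts9, Adamts17 and Adamts18 were not called there. They were 0 for Pbrm1-fl against Arid1a-fl, each set on its own controls. The interaction gave 0 with hSS2 tumours numbered 2000 and over, alone or with hSS1 tumours limited to the Pbrm1-fl range too. For Arid1a-fl the count was 1 with no filter on low counts and 1 with only the compared groups in the fit. With 1 tumour left out, counts ran from 2 to 5 (Pbrm1-fl), 1 to 3 (Arid1a-fl), 0 to 1 (Arid1b-fl), 6 to 9 (Pbrm1-fl against Arid1a-fl), 5 to 9 (4 groups), 0 to 0 (hSS1) and 1 to 2 (interaction). Mmp12 in Arid1b-fl tumours reversed to -0.45 without replicate 5, which held 148.8 CPM, and was 4.90 (adjusted p 0.0320, past the threshold) without control replicate 13. Mmp2 with fibroblast markers fell to r = 0.29 (adjusted permutation p 0.0868) without the 2 tumours farthest from the median score. Why values moved was not tested beyond these refits. No paired analysis was possible because the labels give no replicate numbers that groups share; each hSS2 floxed group lies in 1 mouse number range, so blocking on the range leaves the comparison with controls of that range. Members with few counts, such as Mmp24 in hSS1, are limited by depth.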
